A study of Rattus norvegicus with 4 samples.

Results

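The axon guidance ligands and receptors measured here were the ephrins and Eph receptors, the semaphorins with their plexin and neuropilin receptors, the Slits and Robos, and the netrins with Dcc and the Unc5 receptors. They were chosen by gene name from the probe annotation, and a gene was kept where 2 or more of the 4 arrays had its probe well above background. The names matched 66 genes, of which 64 were kept, out of 30160 genes tested in all. A gene is given by its brightest probe. One of the 64, Unc50, matched by spelling only: it encodes a Golgi membrane protein and no netrin receptor, and its difference was -0.19. That leaves 63 guidance genes, 32 ligands and 31 receptors.

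The samples were primary cortical neurons of Sprague Dawley rat embryos of both sexes at E18.5. A lentiviral shRNA was added on day 2 of culture, and the RNA was taken on day 7. In the shCM1 group, with 2 arrays, the shRNA was directed at Cmtr1, the cap methyltransferase that modifies the first transcribed nucleotide of an mRNA. In the shCTL group, also with 2 arrays, it was a control shRNA, so both groups went through infection. The sample titles write the prefix si where the shRNA field writes sh. The series had 2 independent experiments, and nothing in the labels says how many embryos each culture held. The p-values below therefore measure only the spread between these arrays. The series asks which genes change in neurons after knockdown of Cmtr1.

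Guidance cues are secreted or membrane-bound proteins that steer growth cones, and the same proteins act on dendrite growth, synapse formation and neuron migration in the cortex. Ephrins bind Eph receptor tyrosine kinases and both sides can signal. Secreted class 3 semaphorins bind neuropilins, which pass the signal on through plexins, while most membrane-bound semaphorins bind plexins directly. Slits bind Robos and mostly repel, and netrins attract through Dcc or repel through Unc5 receptors.

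Levels are log2 signals relative to the 75th percentile of the same array, and a difference is shCM1 minus shCTL on that scale. Slide 1 carried the first replicate of either group and slide 2 the second. Differences are therefore also given within slide 1 and within slide 2. The slides were separated by the first principal component, with 65.3% of the variance. The share of probes well above background was 84.0% to 90.4% per array. No gene spot was saturated. Cmtr1 itself had levels of -3.46 and -3.53 in the shCM1 arrays, against -1.43 and -1.86 in the shCTL arrays, which is 27.7% of the control level (limma adjusted p of 1.57e-07 with the slide as a block, not past the threshold without it). Off-target effects of the shRNA and effects of lower Cmtr1 cannot be told apart.

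The limma fit with the slide as a block tested 63 of the 64 members, all but Sema4f. Of these, 4 rose and 3 fell in the shCM1 arrays at an adjusted p under 0.05. Both neuropilins, the Slit receptor Robo2 and the netrin receptor Unc5a rose, by 1.30-fold to 1.59-fold. The ligand Efnb1, the receptor Ephb6 and the semaphorin Sema4g fell to between 61.9% and 79.6% of control. Over all genes the same fit called 6.70%, of which 3.66% were higher and 3.04% lower, against 11.1% of the members. Without the block limma called none of the 64 members (0.00% of all genes), with 4 members at an unadjusted p under 0.05 against 2.99% of genes. For any 1 gene an exact permutation test that ignores the slide can reach no p below 0.333 at this size. The blocked p draws on the spread of other genes with similar signal, through a prior of 18.48 degrees of freedom. Without the intensity trend in that prior no member passed, and the 7 had adjusted limma p from 0.256 to 0.287. In such bulk RNA, fewer cells of a type and less RNA per cell cannot be told apart.

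As a group the members had a median difference of 0.12 (0.11 within slide 1 and 0.13 within slide 2), beside 0.08 over all genes (0.09 and 0.06). The median after quantile normalization was 0.11 for the members and 0.01 over all genes. Within both slides 34 of 63 members were higher in shCM1 and 10 lower, against 44.0% and 22.6% of all genes. After quantile normalization these counts were 30 and 12, against 31.5% and 30.1% of all genes. Both shCM1 arrays lay above both shCTL arrays for 20 of 63 members (21.6% of all genes) and below them for 6 (10.1%). No member was at least 1.5-fold higher in both slides, against 1.79% of all genes, and none was 1.5-fold lower in both, against 0.623%.

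**Figure D1:**
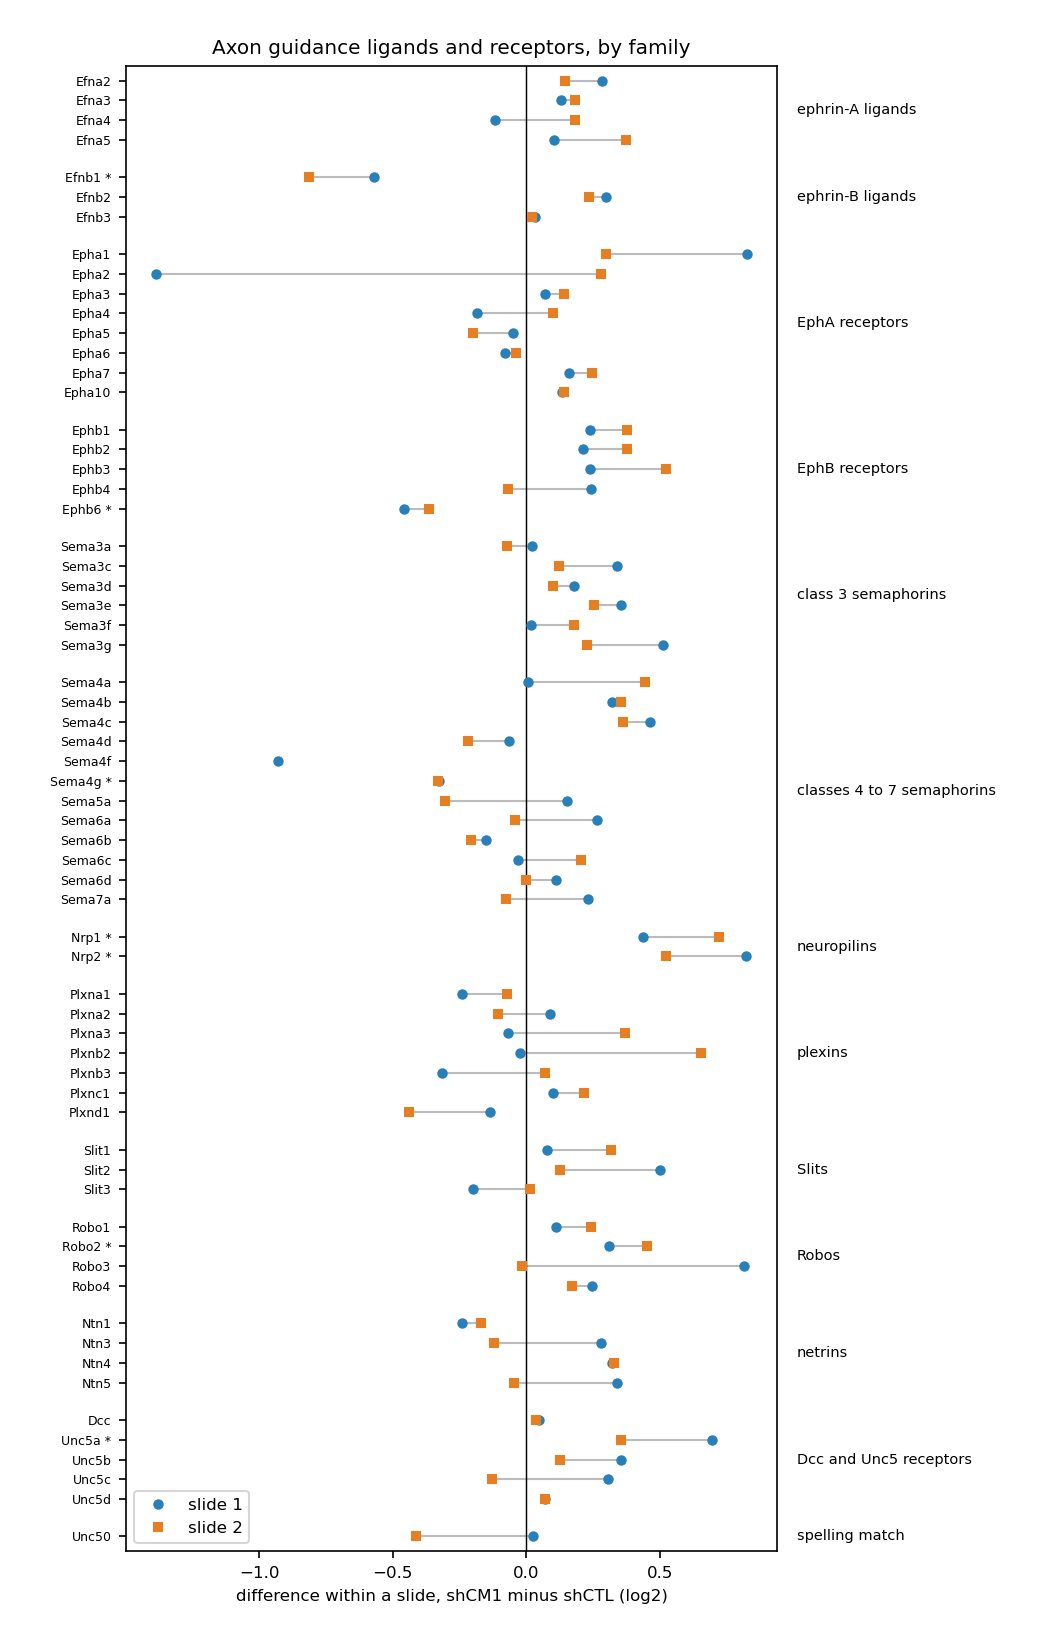
Difference between shCM1 and shCTL on the log2 scale within slide 1 (circles) and slide 2 (squares) for the 64 members, grouped by family, with an asterisk on those past the slide-blocked test. Both neuropilins lie right of 0.4 in both slides, Efnb1 lies left of -0.5 in both, and Sema4f has a value on slide 1 only.

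The results below turn on a few array probes, and their sequences are shown so that each measured stretch of transcript can be found. Each probe has 60 bases, written 5′ to 3′ as in the scanner files. The reported probe of each member that passed comes first in its gene, followed by the other probes of Nrp1, which gave the same direction, and of Sema4g, which did not.
Nrp1, reported probe: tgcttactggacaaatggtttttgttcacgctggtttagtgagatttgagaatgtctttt
Nrp1, other probe across a splice junction: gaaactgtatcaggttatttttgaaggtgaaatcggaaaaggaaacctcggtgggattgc
Nrp1, further probe: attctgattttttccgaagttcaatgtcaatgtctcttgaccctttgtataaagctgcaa
Nrp2, reported probe: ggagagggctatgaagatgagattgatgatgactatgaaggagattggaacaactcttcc
Robo2, reported probe: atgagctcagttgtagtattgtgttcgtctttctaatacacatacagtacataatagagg
Unc5a, reported probe: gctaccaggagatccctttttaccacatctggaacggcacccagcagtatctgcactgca
Efnb1, reported probe: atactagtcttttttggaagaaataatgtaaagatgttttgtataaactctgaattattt
Ephb6, reported probe: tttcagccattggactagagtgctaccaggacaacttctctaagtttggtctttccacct
Sema4g, reported probe: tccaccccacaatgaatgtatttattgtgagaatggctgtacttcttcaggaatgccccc
Sema4g, other probe: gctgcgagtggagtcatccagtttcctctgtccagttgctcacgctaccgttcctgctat

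On the rn4 build that the files use, the 3 Nrp1 probes lie at chr19:58489061-58489120, chr19:58482301-58482792 and chr19:58488130-58488189. The Nrp2 probe maps to chr9:61457268-61459905, Robo2 to chr11:12665243-12665302 and Unc5a to chr17:15671251-15671394. Efnb1 maps to chrX:87175866-87175925, Ephb6 to chr4:69331340-69331399, and the Sema4g probes to chr1:250068834-250068893 and chr1:250064025-250064084. Intervals longer than 60 bases belong to probes that cross an intron. The Robo2 and Unc5a probes are on the minus strand and the others on the plus strand. An annotation of exons and UTRs for rn4 was not used here. The Efnb1 probe has the lowest GC content of the probes shown, at 21.7%, and the other probe of Sema4g the highest, at 55.0%.

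Neuropilins are co-receptors of the secreted class 3 semaphorins, and both of them rose. Nrp1, best known as the receptor for Sema3a, had levels of 1.14 and 1.31 in shCM1, against 0.70 and 0.59 in shCTL. The groups did not overlap, and the difference of 0.58 (SE 0.10 with the block, n = 2 arrays per group) is 1.49-fold. It was 0.44 within slide 1 and 0.72 within slide 2, with an adjusted limma p of 0.00167 with the slide as a block. The other 2 Nrp1 probes had larger differences, 0.83 and 0.72. Nrp2, which binds Sema3c and Sema3f, had levels of -2.24 and -2.15 in shCM1 and -3.07 and -2.68 in shCTL, again without overlap. That is 1.59-fold, or 0.67 (SE 0.15) on the log2 scale. The slides gave 0.82 and 0.52, with an adjusted limma p of 0.00766 with the block. The Nrp2 call was lost after quantile normalization, cyclic loess and in the authors' value table (adjusted limma p from 0.0606 to 0.0812 with the block) and with no filter on dim probes (0.0941), while Nrp1 passed under all 5 scalings and with no filter.

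Neuropilins are also made by endothelial cells, and Nrp1 by some immune cells. Of 10 endothelial and pericyte markers 4 were higher within both slides and 1 was lower, against 44.0% and 22.6% of all genes. Their summed level, in multiples of the 75th percentile signal, was 1.16 and 1.31 in shCM1, against 0.822 and 1.24 in shCTL. Pdgfrb, a pericyte gene, was the only 1 of the 10 that passed, and it rose (0.62, SE 0.15, limma adjusted p = 0.0169 with the block). The other pericyte genes Kcnj8 and Rgs5 had differences of -0.45 and 0.02. Microglial markers were higher within both slides for 11 of 12 measured, and 4 rose with the block, against 3.66% of all genes. Their summed level was 15.1 and 14.0 in shCM1 and 12.1 and 12.4 in shCTL. Itgam, which encodes a microglial integrin, was not well above background on any array. The part of these cells in the neuropilin differences was not tested.

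The class 3 semaphorins themselves did not pass: none of 6 rose or fell. Sema3a, the repellent first found by its collapse of growth cones, had 1.95 and 1.65 in shCM1 and 1.93 and 1.72 in shCTL, and its 2 other probes had differences of 0.12 and 0.03. Its groups overlapped and the difference was -0.03 (SE 0.09 with the block). The smallest p of the class belonged to Sema3e, a ligand of Plxnd1, with 0.11 and -0.57 in shCM1 and -0.24 and -0.82 in shCTL. Its difference was 0.30 (SE 0.11), with 0.35 and 0.25 within the slides, and its adjusted limma p with the block was 0.105. The slides lay further apart than the groups for Sema3e, so that the groups overlapped although each slide gave a higher value in shCM1. Sema3c, Sema3d, Sema3f and Sema3g had differences from 0.10 to 0.37. The genes of Sema3c, Sema3e, Sema3a and Sema3d lie near each other on rat chromosome 4, with probes between positions 13741626 and 18641898 of rn4. Their differences were 0.23, 0.30, -0.03 and 0.14, and none passed.

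Plexins, the signal-transducing receptors for semaphorins, did not pass either, 0 of 7. Plxnd1 came nearest, with 2.77 and 2.40 in shCM1 and 2.90 and 2.84 in shCTL. Its groups did not overlap, and the difference of -0.29 (SE 0.09) was -0.13 and -0.44 within the slides, with an adjusted limma p of 0.0703 with the block. Its other probe had the same sign, at -0.17. Of the class A plexins that partner neuropilins, Plxna1 had -0.16, Plxna2 -0.01 and Plxna3 0.15. Plxna4, also of class A, is no member, since no matched probe carried its name. Plxnc1, the receptor of Sema7a, had 0.16, and Plxnb3, a Sema5a receptor, -0.12. Plxnb2, a receptor of class 4 semaphorins, differed between slides, with -0.02 and 0.65. Plxnb1 was listed under a transcript identifier and is therefore no member.

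Among the 12 semaphorins of classes 4 to 7, which are bound to the membrane, 1 fell and none rose. Sema4g had levels of 2.50 and 2.26 in shCM1 and 2.83 and 2.59 in shCTL. Every shCM1 value lay below every shCTL value, and the difference of -0.33 (SE 0.09, 79.6% of control) was the same within both slides. With the slide as a block limma gave an adjusted p of 0.0288. The other Sema4g probe had 0.45 and -0.13 within the slides, and with the probes averaged the difference was -0.09 and did not pass (0.657). Sema4g also failed after quantile normalization, cyclic loess and in the authors' value table (0.132 to 0.152) and with no filter on dim probes (0.0982). In fits without the block, its difference was -0.20 without shCM1 replicate 2 and -0.21 without shCTL replicate 1. Either run leaves a slide with an unpaired array, so the difference between the slides enters the value.

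Sema4f, another membrane semaphorin, had 0.94 and 0.86 in shCM1 and 1.86 in shCTL replicate 1. The spot of shCTL replicate 2 was marked as an outlier by the scanner software and was left out. The fit with the block then has no residual degree of freedom for this gene, and it was not tested there. Its difference within slide 1 was -0.93. With the marked spot kept, which reads 3.43, the difference was -1.75, with an adjusted limma p of 4.37e-05 with the block. The array of shCTL replicate 2 thus sets the size, and the direction was lower in shCM1 with either handling.

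The remaining membrane semaphorins had differences from -0.18 for Sema6b to 0.41 for Sema4c. Sema4c (0.46 and 0.36 within the slides) and Sema4b (0.32 and 0.35) were higher in both, as was Sema4a (0.01 and 0.44). Sema6b (-0.15 and -0.21) and Sema4d (-0.06 and -0.22), a ligand of class B plexins, were lower in both. Sema5a, Sema6a, Sema6c, Sema6d and Sema7a had differences from -0.07 to 0.11. None of these passed.

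**Figure D2:**
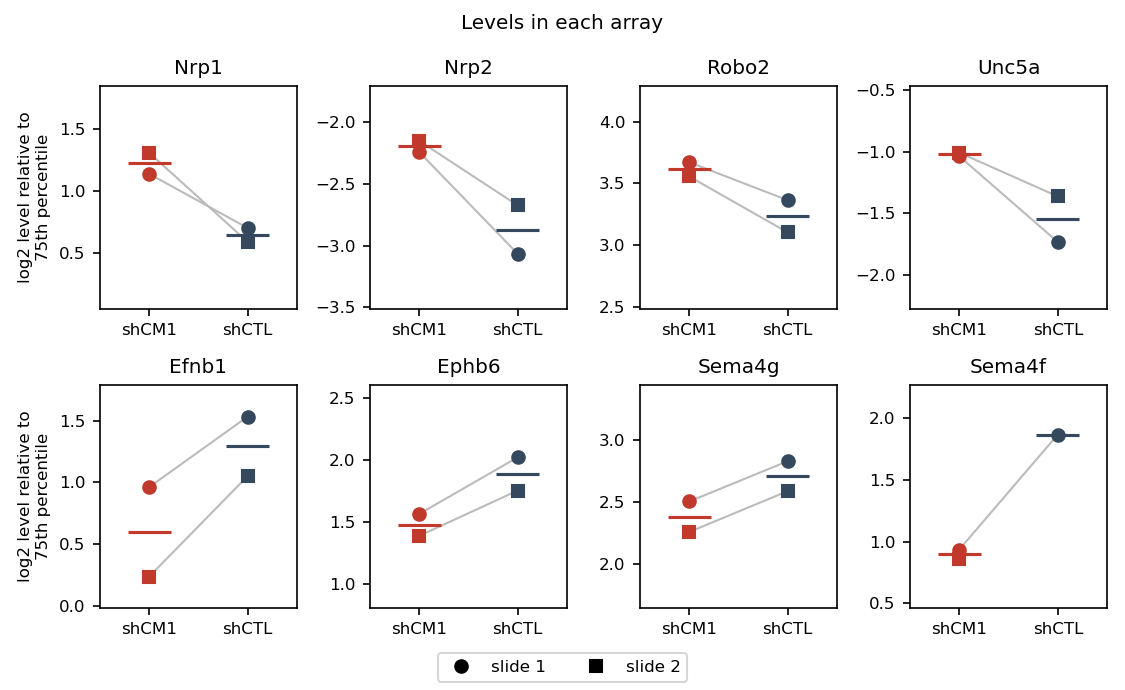
Log2 level relative to the 75th percentile of the array in the 2 shCM1 and 2 shCTL arrays (left and right in each panel), for the 7 members past the slide-blocked test and for Sema4f. Circles are slide 1, squares are slide 2, lines join arrays of the same slide and bars are group means. In the 7 panels with 4 arrays the groups do not overlap, and Sema4f has 1 shCTL value.

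Ephrin ligands are divided by their membrane anchor into the A class, held by a lipid, and the B class, which spans the membrane. Efnb1, the B ligand whose loss causes craniofacial and callosal defects in mice, had the smallest blocked p of all members. Its levels were 0.96 and 0.24 in shCM1, against 1.53 and 1.05 in shCTL. The 2 groups were separate, with 61.9% of control, or -0.69 (SE 0.10). The slides gave -0.57 and -0.81, with an adjusted limma p of 2.72e-04 with the block. Efnb1 passed under all 5 scalings. In fits without the block, its size moved with the array left out. It was -1.05 without shCM1 replicate 1, -0.33 without shCM1 replicate 2 and -0.45 without shCTL replicate 1. Each of these runs leaves a slide with an unpaired array, so the difference between the slides enters the value.

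The other B ephrins did not follow Efnb1 past the test. Efnb2, which also marks arterial endothelium, had 0.30 and 0.23 within the slides. Efnb3, a midline cue for corticospinal axons, had -1.73 and -1.70 in shCM1 and -1.76 and -1.72 in shCTL, a difference of 0.03 (SE 0.13). Of the 4 ephrin-A genes none passed. The lowest p was that of Efna5, a cue of cortical and thalamic maps, with 2.24 and 2.15 in shCM1 and 2.13 and 1.78 in shCTL. It differed by 0.24 (SE 0.10). The slides gave 0.10 and 0.37, with an adjusted limma p of 0.140 with the block, and its other probes had 0.27 and 0.20. Efna2, Efna3 and Efna4 had 0.22, 0.15 and 0.03.

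EphB receptors bind mainly B ephrins and help to build excitatory synapses. Ephb6, whose kinase domain is inactive, had 1.56 and 1.39 in shCM1 and 2.02 and 1.75 in shCTL. It fell to 75.2% of control without overlap, or -0.41 (SE 0.09). The slides gave -0.46 and -0.37, with an adjusted limma p of 0.0110 with the block. Its other probe had -0.38. The call was lost after quantile normalization, cyclic loess and in the authors' value table (0.0630 to 0.0753), with the probes averaged (0.0709) and with no filter on dim probes (0.0694).

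Ephb1, Ephb2 and Ephb3, which have active kinases, lay the other way, and none passed. Ephb1 had 0.24 and 0.38 within the slides, Ephb2 0.21 and 0.38, and Ephb3 0.24 and 0.52. Their adjusted limma p with the block was 0.0660, 0.0993 and 0.0759. In all 3 both shCM1 arrays lay above both shCTL arrays, and the other probes of Ephb1 (0.32) and Ephb2 (0.18 and 0.37) had the same sign. Ephb4, best known from veins, had 0.24 and -0.07.

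No EphA receptor passed among 8. Epha7, which binds A ephrins and limits cortical arbors, had the smallest p of them, with 2.36 and 2.47 in shCM1 and 2.20 and 2.23 in shCTL. That is a difference of 0.20 (SE 0.09), 0.16 and 0.25 within the slides, with an adjusted limma p of 0.183 with the block. Epha4, which binds ephrins of both classes, had 2.38 and 2.45 in shCM1 and 2.57 and 2.36 in shCTL. Its groups overlapped at a difference of -0.04 (SE 0.09), while its dimmer probes had 0.18 and 0.28. Epha3, Epha5, Epha6 and Epha10 had differences from -0.13 to 0.14. Epha1 and Epha2 were the only members just inside the filter, above background on 2 of 4 arrays, and their slides spread widely, with 0.83 and 0.30 for Epha1 and -1.39 and 0.28 for Epha2. Just outside were Unc5cl, with either probe above background on 1 array, and Efna1, on 0.

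Slits are large secreted repellents and Robos their receptors. Robo2 had levels of 3.67 and 3.56 in shCM1, against 3.36 and 3.104 in shCTL. The groups were separate, and it rose 1.30-fold, or 0.38 (SE 0.09). The slides gave 0.31 and 0.45, with an adjusted limma p of 0.00988 with the block. Its other probes had 0.26 and 0.41, and Robo2 passed under all 5 scalings, but not with no filter on dim probes (adjusted limma p of 0.0776 with the block). Its difference was 0.25 without shCTL replicate 2, in a fit without the block that leaves an unpaired array. Robo1, expressed with Robo2 in many cortical neurons, had 1.13 and 1.30 in shCM1 and 1.02 and 1.06 in shCTL, a difference of 0.18 (SE 0.10) that did not pass, although the groups did not overlap. Robo3, the receptor of commissural axons, had 0.81 and -0.02 within the slides, and Robo4, the endothelial member, 0.25 and 0.17.

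Slit2 had 3.44 and 3.39 in shCM1 and 2.94 and 3.27 in shCTL, without overlap. Its difference of 0.31 (SE 0.09) was 0.50 and 0.12 within the slides, with an adjusted limma p of 0.0520 with the block, and it passed, just under the threshold, when only genes above background on all 4 arrays were tested. Its other probe had 0.31 as well. Slit1, the Slit most confined to the nervous system, had 0.64 and 0.52 in shCM1 and 0.56 and 0.21 in shCTL. These overlap, at a difference of 0.20 (SE 0.11). Slit3 had -0.09.

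Netrin receptors divide into Dcc, which mediates attraction, and the Unc5 family, which mediates repulsion. Unc5a had -1.04 and -1.01 in shCM1, against -1.73 and -1.36 in shCTL. It rose 1.44-fold without overlap, or 0.52 (SE 0.13). The slides gave 0.69 and 0.35, with an adjusted limma p of 0.0156 with the block. The call was lost after quantile normalization, cyclic loess and in the authors' value table (adjusted limma p from 0.0808 to 0.107 with the block). It was also lost with no filter on dim probes (0.112). The difference was 0.34 without shCTL replicate 1, in a fit without the block that leaves an unpaired array. Unc5b had 0.35 and 0.13 within the slides and Unc5c 0.31 and -0.13. Unc5d, a receptor of migrating upper-layer neurons, had 2.41 and 2.54 in shCM1 and 2.34 and 2.47 in shCTL, with a difference of 0.07 (SE 0.09). Dcc had -2.99 and -3.26 in shCM1 and -3.03 and -3.30 in shCTL. Its groups overlapped at 0.04 (SE 0.16), and its other probe had 0.40.

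None of the 4 netrins passed. Ntn1, the classical ligand of Dcc, had -4.32 and -4.92 in shCM1 and -4.08 and -4.75 in shCTL, a difference of -0.21 (SE 0.22) with overlapping groups. Ntn4, a basement membrane netrin, had the smallest p, with -2.61 and -2.78 in shCM1 and -2.93 and -3.10 in shCTL. Its groups were separate at a difference of 0.32 (SE 0.15), with an adjusted limma p of 0.201 with the block. Ntn3 and Ntn5 had 0.08 and 0.15.

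Members with several probes allowed a check of the probe, though not of the samples, since all probes were read on the same arrays. The share of agreeing probes over all genes was not computed. For 25 members there were 39 further probes, and 27 had the direction of the reported probe. Of the 6 further probes of members that passed, 5 had it, the exception being Sema4g. Plxna2, Sema3a, Epha4, Sema5a and Unc5d had further probes of the opposite sign to small reported differences, so the sign of their reported values depends on the probe.

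**Figure D3:**
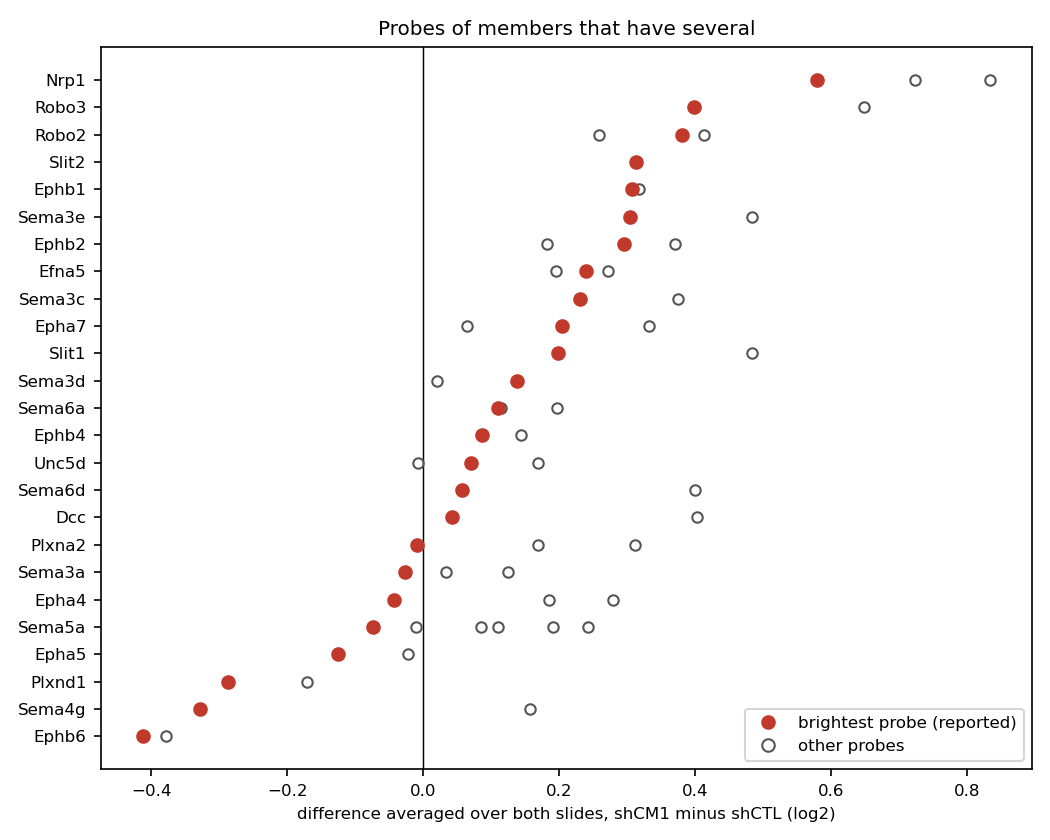
Difference between shCM1 and shCTL on the log2 scale, averaged over both slides, for every kept probe of the 25 members with several, with the brightest probe filled and the others open. The 3 Nrp1 probes all lie above 0.5, and the open probe of Sema4g lies on the other side of 0 from the filled one.

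**Figure D4:**
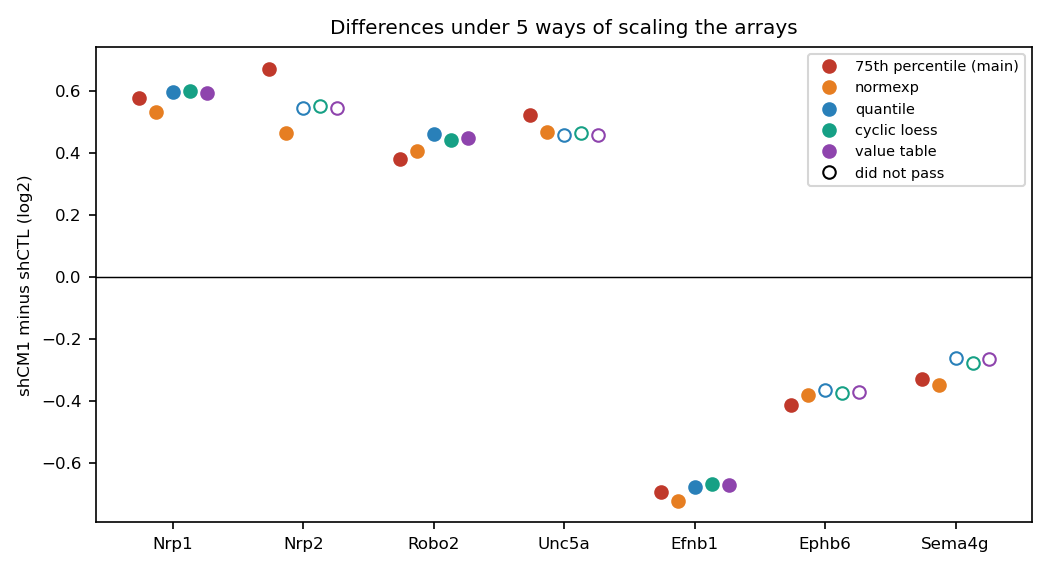
Difference between shCM1 and shCTL on the log2 scale for the 7 members that passed with the 75th percentile scaling, under 5 scalings, with open circles where the slide-blocked test did not pass. Each of the 7 keeps its sign under all 5 scalings, and Nrp1, Robo2 and Efnb1 pass under all of them.

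The scaling moved the background as well as the members. With the block, 1105 of all genes rose and 916 fell. Quantile normalization gave 352 that rose and 557 that fell, cyclic loess 247 and 445, normexp 595 and 787, and the value table of the authors gave 243 and 429. For the members the counts were 4 higher and 3 lower, against 2 and 1 with either quantile or cyclic loess scaling, 4 and 3 with normexp, and 2 and 2 in the authors' value table, where Sema4f was the added gene. Marked spots were not left out of the value table, so Sema4f had a value on every array there and could be tested.

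Further guidance genes were taken from a list of other cues and receptors, such as cell adhesion molecules, teneurins and Wnt and Reelin receptors. Of 44 tested, 5 rose and none fell with the block, against 3.66% and 3.04% of all genes. The median difference was 0.09 beside 0.08 over all genes. None of the 5 calls was left without the block, without the intensity trend or with no filter on dim probes, and normexp left 1. Chl1, an adhesion molecule of the L1 family, had 6.50 and 6.52 in shCM1 and 5.55 and 6.44 in shCTL. Its difference of 0.51 (SE 0.12, limma adjusted p = 0.0153 with the block) was 0.95 within slide 1 and 0.08 within slide 2. Dscaml1, a homophilic adhesion molecule, had 0.49 (SE 0.12, 0.0165), the teneurin Tenm3 0.31 (SE 0.08, 0.0264), and Reln, the secreted layering cue, 0.28 (SE 0.08, 0.0410). Tenm2, another teneurin, also rose.

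Downstream effectors were a further list. Of 68 tested, 7 fell and 1 rose with the block, against 3.04% and 3.66% of all genes. The median difference was -0.02. Within both slides 30 were lower and 18 higher, against 22.6% and 44.0% of all genes. No call was left without the block or without the intensity trend, and 3 were left after cyclic loess. Ptk2b, the calcium-activated kinase PYK2, had -1.64 and -1.85 in shCM1 and -0.75 and -0.78 in shCTL. It fell by 0.98 on the log2 scale (SE 0.12, limma adjusted p = 3.80e-05 with the block). Srgap2, a Rac GTPase-activating protein of the family that binds Robo receptors, fell by 0.56 (SE 0.08, 2.46e-04). Gap43, a growth cone protein, fell by 0.45 (SE 0.08, 9.19e-04). The semaphorin mediator Crmp1 and the focal adhesion kinase Ptk2 also fell, and Ablim3 rose (0.44, SE 0.12, 0.0339). These effectors are shared with many other pathways.

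The markers of the cells that make these cues are set against 44.0% of all genes higher and 22.6% lower within both slides. With the block, 3.66% of all genes rose and 3.04% fell. Inhibitory neuron markers were higher within both slides for 7 of 10 and lower for 1, with a median difference of 0.32 (0.33 and 0.37 within the slides). The lower 1 was Calb2, with -0.18 and -0.22 within the slides, which did not pass. The GABA-synthesizing enzymes Gad1 and Gad2 and the transcription factors Dlx5 and Dlx1 rose, by 0.44 to 0.58 on the log2 scale. The summed level was 299.8 and 171.8 in shCM1 and 260.1 and 167.9 in shCTL. The brightest probes in that sum were those of the neuropeptides Sst and Npy, with differences of 0.21 and -0.02 that did not pass. Of 11 excitatory markers 1 rose and 3 fell, while 4 were higher and 4 lower within both slides. Their sums were 52.3 and 50.5 in shCM1 and 55.5 and 53.1 in shCTL. General neuron markers were lower within both slides for 5 of 8, and 1 fell, Tubb3. Their sums were 359.3 and 272.8 in shCM1 and 376.3 and 294.3 in shCTL. Astrocyte markers did not pass (0 of 8), with 1 higher and 3 lower within both slides. Progenitor markers had 2 of 8 that rose and 1 that fell, the oligodendrocyte lineage 2 of 9 and 1, and fibroblasts 2 of 8 and 1. Within both slides the progenitor markers had 5 higher and 2 lower, the oligodendrocyte lineage 4 and 3, and fibroblasts 4 and 4. The part of any of these cell types in the guidance genes was not tested.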

How the data were processed

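Gene expression was measured on 4 single-colour Agilent arrays, 2 per group. Per the file headers, the deposited spot intensity values came from Feature Extraction 10.7.3.1, background-corrected within the array and not normalized between arrays. A deposited value table holds the authors' linear intensities for all 4 arrays, made by a step not given in the sources used here. It correlated with its own arrays at 0.9998 or above on the log2 scale and served as an alternative. Spots marked as outliers (86 to 98 gene spots per array) were left out, but not from the value table. Repeated spots were averaged per probe, and each log2 value was set against its array's 75th percentile. Probes were named from the files and from RefSeq (GRCr8), and all 64 member names equalled RefSeq symbols. The coordinate order gave the RefSeq strand for 76 of 78 member probes.

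The test was limma's (version 3.58.1, R 4.3.3; lmFit, then eBayes with trend; two-sided) and Benjamini-Hochberg adjustment at 0.05, once with the group alone over 30160 genes and once adding the slide over 30156, since 4 genes with a missing value were not tested there. The slide is the same split as the replicate number. Deviations of same-numbered arrays from group means correlated at 0.713. The alternatives were quantile normalization, cyclic loess, normexp (offset 50), the value table, other dim-probe filters, averaged probes, no trend, marked spots kept and leaving out each array. Runs that left out an array had no block, so they did not pair the arrays of a slide. The number of arrays limits the precision. Members and lists were chosen with earlier results of these data known. Array values are given for members that passed, for the smallest p per family and for 12 well-known members. Per further list, up to 4 per direction by p are given, except that some effectors are not reported here.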

Additional observations from a re-analysis of the deposited data

How the results depend on the processing

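Without a block limma called 0 members in the main run and under each other scaling, filter and probe rule. It called 0 of all genes in these runs too. With the slide as a replicate block it called 7 members. With the replicate block the count was 3 after quantile normalization, 3 after cyclic loess, 4 in the authors' value table, 2 with no filter on dim probes and 0 without the intensity trend. It was 7 with normexp, 8 on genes above background on all 4 arrays, 5 with averaged probes and 8 with the marked spots kept, an alternative chosen after seeing the data. The 5 calls of other cues became 0 without the block, 3 after quantile normalization, 2 after cyclic loess, 1 with normexp, 2 in the value table, 0 with no filter and 0 without the trend. The 8 calls of effectors became 0 without the block, 4 after quantile normalization, 3 after cyclic loess, 3 in the value table, 2 with no filter, 4 with averaged probes and 0 without the trend. The cause was not tested. The members' median ranged from 0.07 without shCTL replicate 2 to 0.18 without shCM1 replicate 2. Those runs had no block, so the difference between the slides enters both values. No called member changed sign in any alternative run. The labels do not say that a replicate number marks a shared experiment, and the slide comes from the file headers.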
